A study of Mus musculus with 21 samples.

Results

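CD11chiMϕ and CD11cloMϕ are the macrophages of the mouse kidney with high and with low surface CD11c, and their transcriptomes were compared in kidneys from Sham mice. The comparison uses 6 of the 21 RNA-seq libraries of the series: 3 of CD11chiMϕ and 3 of CD11cloMϕ, chosen by their labels alone, and it covers every gene. The cells came from male C57BL/6J mice labelled as 24 weeks old. Sham mice had the renal artery exposed without the cuff that narrows it in RAS (renal artery stenosis) mice, and the labels name no transgene or engineered allele. Both populations were sorted, with a labelled sort time of 5 hours, from live CD45+ F4/80+ CD64+ cells after neutrophils, T cells, B cells and NK cells had been gated out by surface markers. The gate drawn in the study also took in cells low for CD64, and both populations were high for CD11b. The gate on CD11c protein sets the groups apart, so *Itgax*, the gene of CD11c, is a check of the labels and not a finding. The labels call the cells of both groups monocyte-derived. They do not say how many mice each library holds or whether the libraries of a group came from separate mice, so p-values measure the spread between these libraries, which may be technical. In pooled RNA of this kind, fewer cells of a type and less RNA per cell cannot be told apart.

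Macrophages take their identity partly from the tissue they live in. Monocytes arrive from the blood carrying Ly6C and adhesion molecules, and lose these while they gain tissue-specific genes, among them those for uptake of dying cells, matrix turnover and antigen presentation. CD11c is also the integrin by which dendritic cells are commonly sorted, and CD64 and F4/80 are used to keep these apart from macrophages. MHC class II molecules display fragments of engulfed proteins to CD4 T cells and are made by dendritic cells, B cells and many tissue macrophages.

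*Itgax* stood at 373, 375 and 133 CPM (counts scaled to a common library size after TMM normalization) in CD11chiMϕ replicates 1, 2 and 3. In CD11cloMϕ it stood at 11.8, 17.4 and 27.8 CPM. The groups did not overlap, and the log2 fold change of CD11chiMϕ over CD11cloMϕ was 3.95 (standard error 0.552), with an adjusted p of 0.0352 from edgeR's quasi-likelihood test with Benjamini-Hochberg adjustment over all genes tested. Macrophage genes were present in all 6 libraries. *Csf1r*, the receptor for the growth factor that macrophages depend on, ranged from 728 to 2689 CPM, and *Fcgr1*, the gene of CD64, from 47.1 to 112 CPM. *Emr1*, the symbol the table uses for the gene of F4/80, ranged from 366 to 942 CPM. Of the 18 macrophage identity genes 0 passed an edgeR adjusted p of 0.05 (2 at an unadjusted p under 0.05, 1 by DESeq2, 0 by limma on the log2 table), their median log2 fold change was -0.11, and 1 of the 18 lay wholly higher and 2 wholly lower, against 14.8% and 12.8% of all genes.

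The libraries numbered 3 stood apart in both groups. Between 8380486 and 9811434 counts were assigned per library over 15025 to 16563 genes, and 3 counts, the limit that a count of 0 allows per library (counting error only), correspond to 0.298 to 0.433 CPM. The summed level of 18 proximal tubule genes was 70297 CPM in CD11chiMϕ replicate 3 and 12942 CPM in CD11cloMϕ replicate 3, against 1036.7 to 1556.6 CPM in the other four. A list of 20 genes of the loop of Henle and distal nephron summed to 2726 and 746 CPM in the replicates numbered 3 and to 11.7 to 24.3 CPM elsewhere. In CD11chiMϕ replicate 3, 20.5% of all counts fell on its 10 top genes, against 8.71% to 13.4% elsewhere. Between groups 0 of the 18 proximal tubule genes passed an edgeR adjusted p of 0.05, as at an unadjusted p under 0.05, by DESeq2 and by limma (0 each), and 0 lay wholly higher in CD11chiMϕ. With the block 1 was higher (2.76% of all genes) and without the libraries numbered 3, 3 were (7.85% of all genes). The part of tubule RNA in the results below was not tested beyond leaving these libraries out. Counts below are given with group alone and, for most lists, also with a term for the number (the block) and without the libraries numbered 3.

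**Figure D1:**
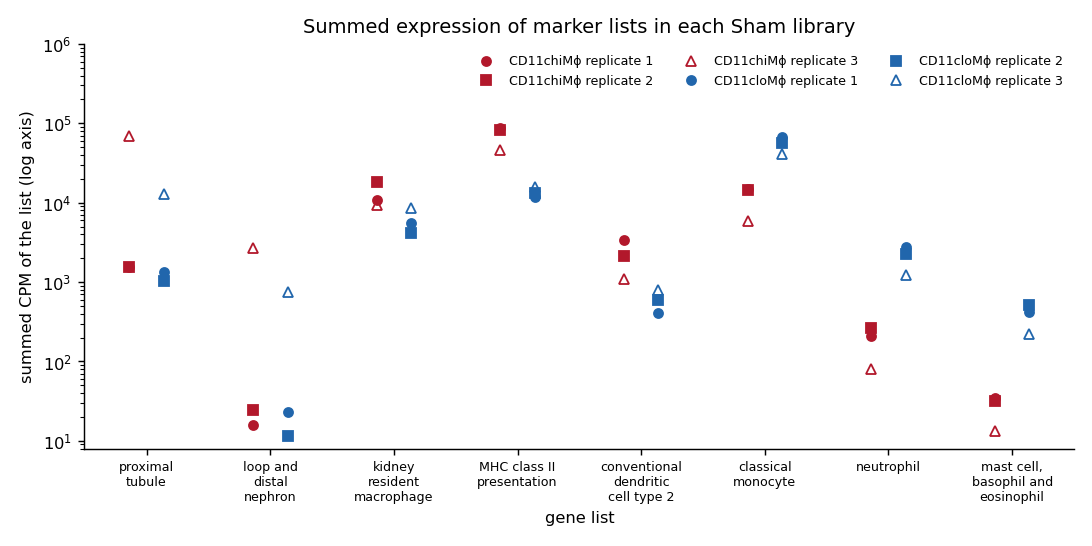
Summed CPM (log axis) of 8 lists of marker genes in each of the 6 Sham libraries, CD11chiMϕ in red and CD11cloMϕ in blue, with replicate 3 as an open triangle. The proximal tubule and distal nephron sums are high in the replicates numbered 3 of both groups, while the MHC class II and dendritic cell type 2 sums are higher, and the monocyte, neutrophil and mast cell, basophil and eosinophil sums lower, in each CD11chiMϕ library than in any CD11cloMϕ library.

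Of 12105 genes tested, 184 (1.52%) differed at an edgeR adjusted p under 0.05, all by more than 2-fold. CD11chiMϕ had 111 of them higher (0.917%) and 73 lower (0.603%). At a fold change above 2 with an unadjusted p under 0.05, 1521 genes differed (12.6%), with 923 higher (7.62%) and 598 lower (4.94%). The block on replicate number raised the adjusted count to 595 (4.92%), with 334 higher (2.76%) and 261 lower (2.16%), and 181 of the 184 genes were among them. Without the libraries numbered 3 the adjusted count was 1898 of 12119 (15.7%) at any fold, 951 higher (7.85%) and 947 lower (7.81%), and all 184 were among them. Above 2-fold these were 814 higher (6.72%) and 611 lower (5.04%), together 1425 (11.8%). The common biological coefficient of variation, the spread between replicates that the model estimates, was 0.559 with group alone, 0.353 with the block and 0.225 without the libraries numbered 3. Leaving out a single library other than CD11chiMϕ replicate 3 left 0 genes at an adjusted p under 0.05: this held without CD11chiMϕ replicate 1, CD11chiMϕ replicate 2, CD11cloMϕ replicate 1, CD11cloMϕ replicate 2 or CD11cloMϕ replicate 3, where 1797, 1672, 1320, 1272 and 2034 genes had an unadjusted p under 0.05 at any fold, against 2144 (17.7%) in all 6 libraries. Without CD11chiMϕ replicate 3, 705 genes passed. DESeq2 called 1213 genes in the 6 libraries, all 184 among them. The median log2 fold change over all genes tested was 0.13.

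**Figure D2:**
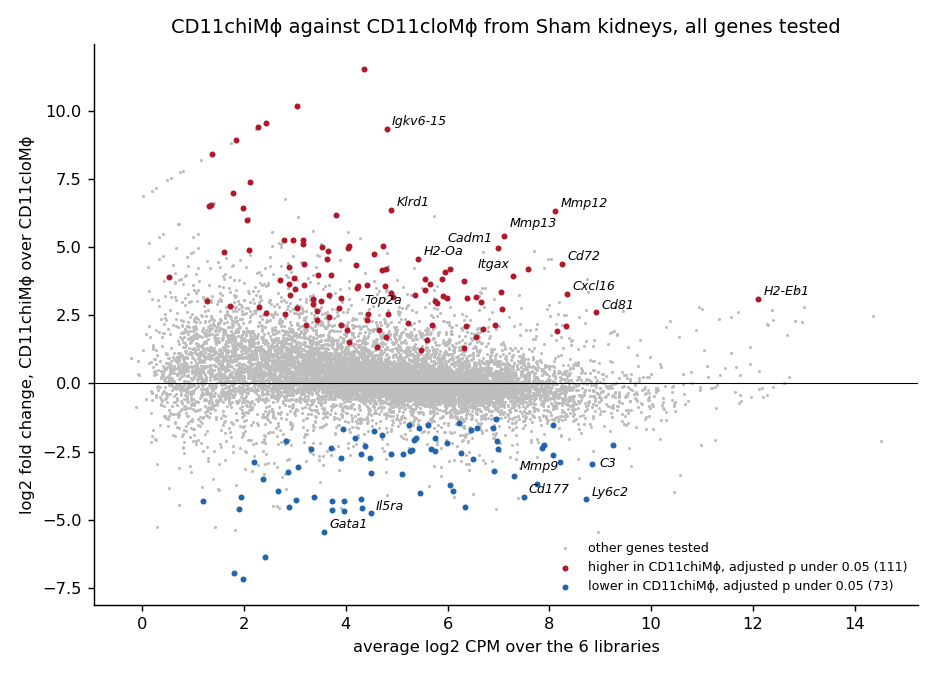
Log2 fold change of CD11chiMϕ over CD11cloMϕ against average log2 CPM over the 6 libraries, 1 point per gene tested. Red points are the 111 genes higher and blue points the 73 genes lower in CD11chiMϕ at an adjusted p under 0.05, and selected genes are named.

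Genes that mark macrophages resident in the kidney had a share of higher calls above that of all genes. Of 22 such genes tested, 7 were higher in CD11chiMϕ and 0 lower at an edgeR adjusted p under 0.05, against 0.917% and 0.603% of all genes, with a median log2 fold change of 2.03. With the block 10 were higher (2.76% of all genes). Leaving out the libraries numbered 3, 16 were higher and 1, *Trem2*, was lower, against 7.85% and 7.81% of all genes. The 3 CD11chiMϕ libraries lay wholly above the CD11cloMϕ libraries for 16 of the 22, against 14.8% of all genes.

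*Mmp12*, the macrophage elastase, had 469.9, 696 and 468 CPM in CD11chiMϕ and 5.96, 2.63 and 11.7 CPM in CD11cloMϕ. Every CD11chiMϕ library was far above every CD11cloMϕ library, and the log2 fold change was 6.33 (standard error 0.653, edgeR adjusted p = 0.0208). *Mmp13*, a collagenase encoded beside *Mmp12* (chr9:7272514-7283331 and chr9:7344381-7369499 on GRCm38, both on the plus strand), had 242, 359 and 211 CPM against 11.4, 4.45 and 3.43 CPM. It was higher by 5.39 on the log2 scale (standard error 0.584, edgeR adjusted p = 0.022), with no overlap. Another metalloproteinase went the other way: *Mmp9*, a gelatinase stored in neutrophil granules and also made by monocytes, had 33.8, 24.2 and 25.8 CPM in CD11chiMϕ and 290.0, 351 and 228 CPM in CD11cloMϕ. Its log2 fold change was -3.37 (standard error 0.271, edgeR adjusted p = 0.0191), again without overlap.

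The other 5 resident genes called encode membrane proteins. *Cadm1*, an adhesion molecule of the immunoglobulin family, stood at 188, 353 and 192 CPM against 8.89, 6.74 and 7.53 CPM. *Cd72*, an inhibitory co-receptor, stood at 593, 768 and 375 CPM against 34.0, 29.0 and 19.7 CPM, and *Cd81*, a tetraspanin, at 749, 1076 and 664 CPM against 112, 127 and 169 CPM. None of the 3 genes overlapped between groups, and their log2 fold changes were 4.98, 4.39 and 2.61 (edgeR adjusted p = 0.0191, 0.0202 and 0.0257). *Itga9*, an integrin subunit, was at 129, 235 and 82.2 CPM against 13.3, 16.4 and 20.8 CPM. *Cxcl16*, the membrane-bound ligand of the receptor CXCR6, was at 523, 838 and 411 CPM against 52.0, 62.5 and 68.4 CPM. Both were higher in all CD11chiMϕ libraries, by 3.14 and 3.28 on the log2 scale (edgeR adjusted p = 0.0367 and 0.0209).

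The C1q chains, which start the classical complement cascade and tag dying cells, were abundant in both populations. *C1qb* had 1987, 3069 and 1851 CPM in CD11chiMϕ and 623, 536 and 946 CPM in CD11cloMϕ. *C1qa*, *C1qb* and *C1qc* did not overlap between groups, but their log2 fold changes of 1.82, 1.71 and 1.58 missed the threshold with group alone (edgeR adjusted p = 0.0819, 0.0947 and 0.101) and with the block (0.0653, 0.0827 and 0.0905). Without the libraries numbered 3 the same test gave 0.00281, 0.0024 and 0.00298. *C3*, the central component on which the complement pathways meet, was lower in CD11chiMϕ, with 116, 146 and 55.8 CPM against 868, 868 and 708 CPM. Its log2 fold change was -2.94 (standard error 0.407, edgeR adjusted p = 0.0348). *Trem2*, a lipid-sensing receptor of macrophages, had 15.9, 20.8 and 20.5 CPM against 49.7, 36.0 and 29.0 CPM, so that CD11chiMϕ lay wholly lower, at an edgeR adjusted p of 0.141. *Apoe*, the most abundant gene of the list, overlapped between groups, at 1999 to 4334 CPM against 2030 to 5397 CPM.

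Other genes called higher in CD11chiMϕ encode receptors, enzymes and a growth factor. *Slamf9*, of the SLAM receptor family, had 394, 487 and 205 CPM against 22.3, 17.1 and 20.4 CPM, and *Lilra5*, an activating immunoglobulin-like receptor, 188, 376 and 157 CPM against 26.4, 21.02 and 24.0 CPM. *Ms4a7* had 141, 224 and 141 CPM against 18.6, 18.4 and 19.8 CPM. Groups were apart for all 3 genes, with log2 fold changes of 4.18, 3.34 and 3.16 (edgeR adjusted p = 0.0202, 0.0245 and 0.0191). *Hpgds*, which makes prostaglandin D2 in hematopoietic cells, was at 49.99, 73.5 and 39.7 CPM against 6.97, 5.71 and 5.2 CPM. *Ch25h*, the enzyme that hydroxylates cholesterol, was at 44.9, 64.8 and 38.4 CPM against 2.53, 5.03 and 0.775 CPM. These 2 enzymes were higher by 3.19 and 4.15 on the log2 scale (edgeR adjusted p = 0.0208 and 0.0492). *Hpgds* was the 1 of 20 leukotriene and prostaglandin genes called with group alone. The median over the 20 was -0.33 on the log2 scale, and with the block 1 was higher and 3 lower, against 2.76% and 2.16% of all genes. *Tgfb3*, a growth factor of the TGF-β family, was measured at 5.67, 12.4 and 6.49 CPM in CD11chiMϕ and at or below 0.101 CPM in CD11cloMϕ, where 2 of the 3 libraries had 0 counts (edgeR adjusted p = 0.0295).

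**Figure D3:**
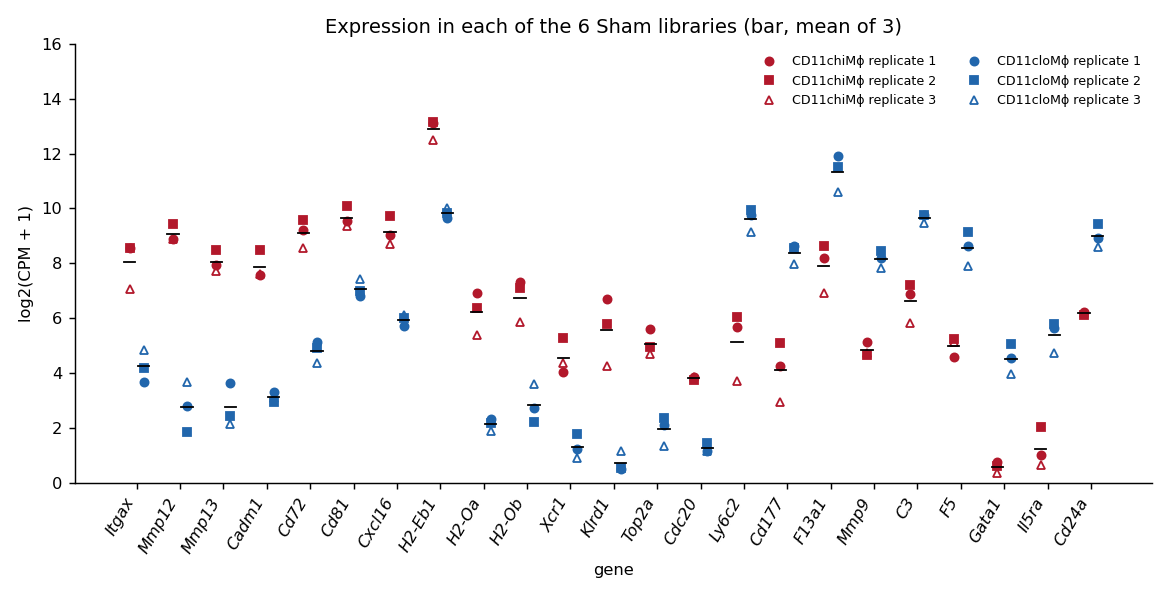
Expression as log2(CPM + 1) of 23 genes in each of the 6 Sham libraries, CD11chiMϕ in red and CD11cloMϕ in blue, with a bar at the mean of 3 libraries and replicate 3 as an open triangle. For all genes shown the libraries of one group lie wholly above those of the other; *F13a1* is the gene shown that did not pass the adjusted threshold with group alone.

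The genes of MHC class II presentation were abundant in both populations, and their summed level was 88032, 82645 and 45642 CPM in CD11chiMϕ against 11870, 13315 and 16006 CPM in CD11cloMϕ. All 3 sums were therefore above all 3 of the other group, and CD11chiMϕ replicate 3 was the lowest of its group. Of 12 genes tested, 4 were higher at an edgeR adjusted p under 0.05 and 0 lower, the median log2 fold change was 2.57, and 10 lay wholly higher. Over all genes 0.917% were called higher and 14.8% lay wholly higher. The block gave 7 higher (2.76% of all genes), and without the libraries numbered 3, 11 of 13 were higher (7.85% of all genes).

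*H2-Eb1*, the beta chain of the I-E molecule, had 8931, 9036 and 5726 CPM against 804, 915 and 1044 CPM. It was higher in CD11chiMϕ by a log2 fold change of 3.10 (standard error 0.437, edgeR adjusted p = 0.036). *H2-Aa* and *H2-Ab1*, the chains of I-A, were more abundant still but more variable: *H2-Ab1* had 17849, 15948 and 9499.9 CPM against 1703, 2073 and 2409 CPM. Neither overlapped between groups, and their edgeR adjusted p-values of 0.0597 and 0.0665 missed the threshold with group alone (0.0487 and 0.0528 with the block). That of *Cd74*, the invariant chain that guides class II molecules to the endosome, missed it in both fits (0.146 and 0.117). *Cd74* had 44040.0, 41250.0 and 21976 CPM against 4924, 6146 and 8266 CPM.

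The class II genes that passed were mainly those of the peptide-loading machinery. *H2-Oa* and *H2-Ob* encode H2-O, which restrains the peptide exchange catalysed by H2-M and is known from B cells and some dendritic cells. *H2-Oa* was at 121, 82.3 and 40.8 CPM in CD11chiMϕ and at 4.04, 3.54 and 2.66 CPM in CD11cloMϕ, and *H2-Ob* at 157, 135 and 56.5 CPM against 5.66, 3.65 and 10.96 CPM. Neither gene overlapped, and the log2 fold changes were 4.57 and 4.10 (edgeR adjusted p = 0.0208 and 0.0379). *H2-DMb2*, a beta chain of H2-M, was at 241, 133 and 69.1 CPM against 11.4, 5.6 and 15.6 CPM, a log2 fold change of 3.76 (edgeR adjusted p = 0.0479), and its near-identical neighbour *H2-DMb1* was at 1334, 1038 and 572 CPM against 251, 246 and 275 CPM (log2 fold change 1.93, edgeR adjusted p = 0.0636, and 0.0494 with the block). Reads that fit both were shared between these copies by the counting, so the split between them is uncertain. *Ciita*, the master activator of class II transcription, was at 402, 289.8 and 151 CPM against 49.2, 59.7 and 77.4 CPM, without overlap (log2 fold change 2.18, edgeR adjusted p = 0.0625, and 0.0473 with the block). *Ctss*, a protease that trims the invariant chain, and *Ifi30*, a thiol reductase of the endosome, overlapped between groups.

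Class II promoters are known for a shared set of elements, and the promoters of the 4 genes that passed are shown because these genes moved together. The sequences are RefSeq promoters on GRCm38.p6, from 250 bases before to 50 bases after the start of transcription, all on the plus strand. Capitals mark, on either strand, ATGATG (reverse complement CATCAT), letters found in the X box of such genes, and TGATTGG (reverse complement CCAATCA), which holds the inverted CCAAT of the Y box. The promoters lie at chr17:34305617-34305916 (*H2-Eb1*), chr17:34238655-34238954 (*H2-Ob*), chr17:34144999-34145298 (*H2-DMb2*) and chr17:34092129-34092428 (*H2-Oa*).
H2-Eb1: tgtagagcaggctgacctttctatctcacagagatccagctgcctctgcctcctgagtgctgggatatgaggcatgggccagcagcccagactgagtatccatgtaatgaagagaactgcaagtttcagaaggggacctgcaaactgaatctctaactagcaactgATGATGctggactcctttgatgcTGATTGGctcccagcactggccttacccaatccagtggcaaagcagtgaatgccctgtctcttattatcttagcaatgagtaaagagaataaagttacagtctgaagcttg
H2-Ob: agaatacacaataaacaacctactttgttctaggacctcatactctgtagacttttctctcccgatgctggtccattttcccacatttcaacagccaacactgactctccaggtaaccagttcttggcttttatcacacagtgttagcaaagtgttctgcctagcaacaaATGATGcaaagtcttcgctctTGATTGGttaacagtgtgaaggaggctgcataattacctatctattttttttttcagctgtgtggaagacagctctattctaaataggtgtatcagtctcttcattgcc
H2-DMb2: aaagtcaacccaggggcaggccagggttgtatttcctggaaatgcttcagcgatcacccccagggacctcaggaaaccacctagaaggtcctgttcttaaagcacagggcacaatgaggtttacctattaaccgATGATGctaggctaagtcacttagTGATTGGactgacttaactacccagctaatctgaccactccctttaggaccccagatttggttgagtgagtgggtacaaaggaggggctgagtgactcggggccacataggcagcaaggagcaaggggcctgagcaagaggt
H2-Oa: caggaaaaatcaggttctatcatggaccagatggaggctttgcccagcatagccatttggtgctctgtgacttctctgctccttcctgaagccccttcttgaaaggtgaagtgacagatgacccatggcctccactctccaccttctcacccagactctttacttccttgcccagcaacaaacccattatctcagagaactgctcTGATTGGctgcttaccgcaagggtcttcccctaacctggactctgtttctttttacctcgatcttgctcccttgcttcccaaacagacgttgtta

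The promoter sequences of *H2-Eb1*, *H2-Ob* and *H2-DMb2* hold both sets of letters in the same order, with ATGATG ahead of TGATTGG, and that of *H2-Oa* holds TGATTGG alone. Counted from the start of transcription, TGATTGG begins at position -61 in *H2-Eb1*, -59 in *H2-Ob*, -92 in *H2-DMb2* and -45 in *H2-Oa*. Of the 13 list genes 10 had a promoter that was used here, of which 7 hold TGATTGG and 4 hold ATGATG. Over all 32851 promoters of the same length, TGATTGG was found in 7.82%, ATGATG in 11.2% and both in 0.715% (235 promoters). The letters were chosen after these promoters had been read, so the shares are a description.

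Genes of dendritic cells were measured in both populations. Of 11 genes of conventional dendritic cells type 1, 3 were higher and 1 was lower at an edgeR adjusted p under 0.05, against 0.917% and 0.603% of all genes, with a median log2 fold change of 2.73. The counts were 5 and 1 with the block (2.76% and 2.16% of all genes), and 8 and 1 without the libraries numbered 3 (7.85% and 7.81%). *Xcr1*, the chemokine receptor that defines this type, had 15.5, 38.0 and 19.3 CPM against 1.31, 2.4 and 0.886 CPM, a log2 fold change of 3.98 (edgeR adjusted p = 0.0374) without overlap. *Gcet2* was at least 31.8-fold higher, since all 3 CD11cloMϕ libraries had 0 counts, and *Cadm1*, shared with the resident list, was another. *Clec9a*, a receptor for dead cells, had 17.1, 26.5 and 19.6 CPM against 0.606, 1.71 and 0.111 CPM (edgeR adjusted p = 0.0599, and 0.0128 with the block). *Cd24a*, a surface glycoprotein used to separate dendritic cells from macrophages, went against the list: it had 74.3, 67.9 and 72.1 CPM in CD11chiMϕ and 489.9, 693 and 384 CPM in CD11cloMϕ, a log2 fold change of -2.87 (standard error 0.287, edgeR adjusted p = 0.0208). *Irf8*, the transcription factor on which this type depends, overlapped, at 243 to 455 CPM against 261 to 332 CPM.

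Of 15 genes of conventional dendritic cells type 2, 0 passed an edgeR adjusted p of 0.05 with group alone, while 10 were higher and 1 lower at an unadjusted p under 0.05. The counts were 10 and 1 by DESeq2 and 2 and 0 by limma on the log2 table. With the block 5 were higher (2.76% of all genes) and without the libraries numbered 3, 10 were (7.85% of all genes). Of the 15, 10 lay wholly higher in CD11chiMϕ, against 14.8% of all genes. *Cd209a*, a lectin of the DC-SIGN family, had 1429, 695 and 257 CPM against 16.2, 49.9 and 102 CPM, *Flt3*, the receptor for a growth factor of dendritic cells, 133, 136 and 47.7 CPM against 29.2, 19.3 and 34.2 CPM, and *Zbtb46*, a transcription factor of the lineage, 78.4, 53.9 and 21.1 CPM against 2.63, 1.94 and 9.85 CPM. In these 3 genes replicate 3 was the lowest of the CD11chiMϕ libraries and the highest of the CD11cloMϕ libraries, and each had an edgeR adjusted p of 0.104 with log2 fold changes of 3.83, 1.94 and 3.41. The chemokines *Ccl17* and *Ccl22*, both ligands of CCR4, had 20.8, 7.01 and 12.7 CPM and 47.3, 23.0 and 42.5 CPM in CD11chiMϕ and at most 0.343 and 2.1 CPM in CD11cloMϕ (edgeR adjusted p = 0.0549 and 0.088, and 0.0236 and 0.0193 with the block). The part of dendritic cells in the class II and cell cycle values was not tested.

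Some receptors and ligands of leukocyte traffic and growth were among the higher genes. Of 13 chemokine receptors tested 2 were higher and 0 lower at an edgeR adjusted p under 0.05, and 3 lay wholly higher and 3 wholly lower. Of 22 CC and CXC chemokines 2 were higher and 0 lower, 7 lay wholly higher and 3 wholly lower, and the median log2 fold change was -0.17. Over all genes 0.917% were called higher and 0.603% lower, and 14.8% lay wholly higher and 12.8% wholly lower. *Cxcr3*, a receptor for interferon-induced chemokines, had 16.8, 18.0 and 14.4 CPM against 2.22, 1.03 and 0.775 CPM, and *Ccl5*, a T cell attractant, 33.6, 13.6 and 32.2 CPM against 1.82, 4.23 and 2.99 CPM. *Kit*, the stem cell factor receptor, had 11.3, 10.4 and 21.5 CPM against 0.606, 1.48 and 1.77 CPM, and *Clec4b1*, a C-type lectin, 228, 195 and 112 CPM against 22.1, 20.3 and 25.8 CPM. All of them were apart between groups, with log2 fold changes of 3.60, 3.13, 3.47 and 2.97 (edgeR adjusted p = 0.0328, 0.0492, 0.0479 and 0.0219). *Klrd1*, the gene of CD94, and *Klrb1b*, both C-type lectins best known from NK cells, were among the genes with the largest change. *Klrd1* had 102, 54.0 and 17.9 CPM against 0.404, 0.457 and 1.22 CPM, and *Klrb1b* 38.3, 42.4 and 13.6 CPM against 0.808, 1.26 and 0.886 CPM (log2 fold change 6.36 and 4.98, edgeR adjusted p = 0.0328 and 0.022). Of the T and NK cell list, *Ncr1* was at 0.106 to 2.88 CPM in CD11chiMϕ and *Prf1* at 0.288 to 1.79 CPM. The T and NK list summed to 28.9, 55.3 and 54.4 CPM against 4.24, 6.51 and 10.52 CPM, and 4 of its 14 genes could be tested, of which 0 passed the edgeR adjusted threshold (2 higher at an unadjusted p under 0.05, 1 by DESeq2, 0 by limma) and 1 was higher with the block, where 0.917% and 2.76% of all genes were. All 4 genes tested had a positive log2 fold change, with a median of 2.82. Without the libraries numbered 3, 2 of 2 tested were higher, against 7.85% of all genes. The part of NK cells in these values was not tested. *Siglech*, a marker of plasmacytoid dendritic cells also found on some macrophages, had 21.2, 17.6 and 11.7 CPM against 0.505, 0.343 and 0.553 CPM (edgeR adjusted p = 0.0191).

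Immunoglobulin variable segments were among the genes called higher. *Igkv3-2*, a kappa light chain variable segment, had 59.7, 15.8 and 45.6 CPM in CD11chiMϕ and 0 counts in all CD11cloMϕ libraries, so that it was at least 124-fold higher (floor of 3 counts per library, edgeR adjusted p = 0.0348). *Ighv1-53* was at least 49.6-fold higher, with 11.1, 18.5 and 18.7 CPM against 0 counts, and *Igkv6-15* had 86.7, 38.1 and 41.2 CPM against 0.202, 0 and 0 CPM. Variable segments are near-identical within families, so the share of reads given to each is uncertain. *Igkc*, the constant region that all kappa chains share, had 277, 737 and 429 CPM against 34.6, 23.8 and 2.44 CPM (log2 fold change 4.57, edgeR adjusted p = 0.088, and 0.0294 with the block). *Igj*, the joining chain of secreted IgA and IgM, had 164, 754 and 292 CPM against 29.8, 11.3 and 0.111 CPM. Of the B cell and plasma cell list, 6 of 12 genes could be tested, 0 passed with group alone by edgeR (4 higher at an unadjusted p under 0.05, 4 by DESeq2, 0 by limma) and 1 was higher with the block, against 0.917% and 2.76% of all genes. The list summed to 831, 1952 and 1896 CPM against 239, 319.9 and 239 CPM. Of the B cell markers in the list, *Ms4a1* reached 1.73 CPM at most and *Pax5* 0.144 CPM. All 6 genes tested had a positive log2 fold change, with a median of 2.31. Without the libraries numbered 3, 4 were higher, against 7.85% of all genes. The part of B cells and plasma cells in the immunoglobulin values was not tested.

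Cell division genes leaned to CD11chiMϕ throughout. All 30 genes of the list had a positive log2 fold change, with a median of 2.46, and 27 lay wholly higher, against 14.8% of all genes. Of the 30, 8 passed an edgeR adjusted p of 0.05 and all 8 were higher, against 0.917% of all genes. The count was 17 with the block and 24 without the libraries numbered 3, where 2.76% and 7.85% of all genes were higher. The list summed to 994, 680.2 and 601 CPM against 216, 281 and 286 CPM.

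Mitotic genes made up most of the calls. *Cdc20*, which activates the anaphase-promoting complex, had 13.4, 12.5 and 13.4 CPM against 1.21, 1.71 and 1.22 CPM (log2 fold change 3.24, standard error 0.336, edgeR adjusted p = 0.0208). *Top2a*, the topoisomerase that untangles sister chromatids, had 47.1, 30.0 and 24.5 CPM against 3.33, 4.11 and 1.55 CPM (log2 fold change 3.49, edgeR adjusted p = 0.034). *Birc5*, *Ccnb1* and *Nusap1*, which act on the spindle and at the entry to mitosis, had log2 fold changes of 3.88, 3.78 and 5.26 (edgeR adjusted p = 0.032, 0.0401 and 0.0344), and *Ccna2*, *Bub1b* and *Mcm2* 2.64, 2.13 and 2.32 (edgeR adjusted p = 0.0352, 0.0401 and 0.0454). *Mki67*, the common marker of cycling cells, had 47.3, 41.6 and 45.6 CPM against 5.45, 14.3 and 9.08 CPM, without overlap (edgeR adjusted p = 0.0546, and 0.0212 with the block). *Pcna*, the clamp of DNA polymerase, overlapped, at 72.4 to 127 CPM against 61.4 to 89.3 CPM. Cyclins of the G1 phase, outside the list, were higher too: *Ccnd1* had 90.0, 53.7 and 119 CPM against 4.75, 4.00 and 9.52 CPM and *Ccnd2* 152, 96.4 and 82.3 CPM against 6.26, 6.51 and 10.52 CPM (edgeR adjusted p = 0.0296 and 0.0204).

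The promoters of *Cdc20* and *Top2a* are shown for elements known from genes of the G2 and M phases, repeated CCAAT boxes and the cell cycle homology region. They are RefSeq promoters on GRCm38.p6 with the same bounds, at chr4:118437294-118437593 and chr11:99024140-99024439, both on the minus strand. Capitals mark, on either strand, CCAAT (a box that is also within TGATTGG on the other strand), the run TTTGAA of the homology region and its variant TTCGAA, which is its own reverse complement.
Cdc20: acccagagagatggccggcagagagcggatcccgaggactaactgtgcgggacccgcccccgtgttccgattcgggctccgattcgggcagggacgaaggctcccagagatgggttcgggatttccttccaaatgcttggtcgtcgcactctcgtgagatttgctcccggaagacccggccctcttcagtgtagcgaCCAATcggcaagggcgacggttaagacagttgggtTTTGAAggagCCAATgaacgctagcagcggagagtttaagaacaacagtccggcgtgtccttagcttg
Top2a: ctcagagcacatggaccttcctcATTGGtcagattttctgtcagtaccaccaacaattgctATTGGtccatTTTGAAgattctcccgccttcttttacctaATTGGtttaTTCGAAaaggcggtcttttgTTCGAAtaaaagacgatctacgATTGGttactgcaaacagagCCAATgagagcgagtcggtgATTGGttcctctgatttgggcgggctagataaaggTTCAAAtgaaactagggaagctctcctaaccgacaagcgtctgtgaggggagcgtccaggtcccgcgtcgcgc

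CCAAT occurs 2 times in the *Cdc20* promoter and 6 times in that of *Top2a*. Of the 30 cell cycle genes 25 were matched to a promoter, and 21 of these hold CCAAT, 13 hold TTTGAA and 3 hold the variant TTCGAA. Over all 32851 promoters the shares were 37.4%, 17.9% and 1.56%.

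Genes of classical monocytes leaned to CD11cloMϕ throughout. All 19 genes of the list had a negative log2 fold change, with a median of -2.47, and 18 did not overlap, against 12.8% of all genes. Of the 19, 2 were lower at an edgeR adjusted p under 0.05 with group alone, 14 with the block and 18 without the libraries numbered 3, where 0.603%, 2.16% and 7.81% of all genes were lower. The list summed to 14937, 14458 and 5927 CPM against 66734, 57299 and 41034 CPM, with replicate 3 the lowest of both groups.

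*Ly6c2*, one of the genes of the monocyte marker Ly6C (chr15:75108158-75111970 on GRCm38, minus strand), had 49.99, 64.6 and 11.97 CPM in CD11chiMϕ and 858, 974 and 564 CPM in CD11cloMϕ. Its log2 fold change was -4.24 (standard error 0.681, edgeR adjusted p = 0.0478), and its close copy *Ly6c1*, with which reads may be shared, was at 50.3 CPM or less in all 6 libraries. *Cd177*, an adhesion partner of PECAM-1 that neutrophils also carry, had 18.3, 32.7 and 6.63 CPM against 391, 378 and 252 CPM (log2 fold change -4.14, edgeR adjusted p = 0.0412). *F13a1*, the A subunit of coagulation factor XIII, was called with the block: it had 289, 398 and 120.4 CPM against 3856, 2896 and 1544 CPM (log2 fold change -3.36, edgeR adjusted p = 0.0597, and 0.0125 with the block). *Chi3l3*, which encodes the secreted chitinase-like protein Ym1, stood at 141, 357 and 2.02 CPM against 4251, 3198 and 458 CPM, an edgeR adjusted p of 0.284 with group alone and 0.0358 with the block. *Ccr2*, the receptor by which monocytes leave the bone marrow, was the gene of the list whose groups overlapped, at 277 to 1158 CPM against 717 to 1867 CPM.

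Non-classical monocyte genes were divided. Of 18, 0 passed an edgeR adjusted p of 0.05 with group alone (6 higher and 2 lower at an unadjusted p under 0.05, 4 and 1 by DESeq2, 0 by limma), and 2, *Dusp16* and *Bcl2a1d*, were higher with the block, against 2.76% of all genes. Without the libraries numbered 3, 9 were higher and 1 lower, against 7.85% and 7.81% of all genes. *Fcgr4*, the gene of CD16-2, which this monocyte type carries at high level, belongs to the gating list: it had 195, 269.5 and 96.3 CPM against 43.8, 36.1 and 28.9 CPM (log2 fold change 2.36, edgeR adjusted p = 0.0571, and 0.0165 with the block). *Nr4a1*, the nuclear receptor on which they depend, had 1119.8, 721 and 299 CPM against 1558, 1533 and 2343 CPM.

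Granulocyte genes were low in CD11chiMϕ. Of 12 neutrophil genes 7 could be tested, and all 7 lay wholly lower, against 12.8% of all genes. With group alone 1, *Mmp9*, was lower at an edgeR adjusted p under 0.05, with the block 3 were and without the libraries numbered 3, 7 of 8 were. The shares of all genes lower were 0.603%, 2.16% and 7.81%. The list summed to 208, 263 and 80.3 CPM against 2799, 2246 and 1223 CPM. *Retnlg*, a resistin-like secreted protein, had 22.8, 42.2 and 1.15 CPM against 1102, 1247 and 569 CPM (log2 fold change -5.46, edgeR adjusted p = 0.0938, and 0.0153 with the block). Some genes of the list were near 0: *Ly6g* had 0 counts in 5 of the 6 libraries and 0.404 CPM in the other one, and *Elane* reached 1.92 CPM at most. The part of neutrophils in the list sum was not tested. *Padi4*, which citrullinates histones, had 18.2, 26.0 and 26.5 CPM against 198, 265 and 187 CPM (log2 fold change -3.20, edgeR adjusted p = 0.0191).

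*Gata1*, the erythroid, megakaryocyte and eosinophil transcription factor, had the lowest fold change among the called genes with an average of at least 3 on the log2 CPM scale. It had 0.696, 0.531 and 0.288 CPM in CD11chiMϕ and 22.3, 31.9 and 14.4 CPM in CD11cloMϕ, a log2 fold change of -5.44 (standard error 0.521, edgeR adjusted p = 0.0204). *Il5ra*, the interleukin-5 receptor, had 0.994, 3.08 and 0.577 CPM against 48.5, 54.7 and 25.2 CPM (log2 fold change -4.76, edgeR adjusted p = 0.0413). *Ccr3*, the eotaxin receptor, had 12.03, 16.6 and 0.577 CPM against 274, 309 and 134 CPM, and *Siglec5*, the symbol the table uses for Siglec-F, 11.03, 10.1 and 0.865 CPM against 140.1, 178 and 78.2 CPM. Both were apart between groups, with edgeR adjusted p-values of 0.102 and 0.088 and, with the block, 0.0135 and 0.0113. The granule protein genes of eosinophils were near 0: *Epx* had 0 counts in all 6 libraries, and *Prg2* reached 2.73 CPM at most and lay lower in CD11chiMϕ without passing the test (edgeR adjusted p = 0.451). Of 10 genes of mast cells, basophils and eosinophils 6 could be tested, and 0 passed with group alone by edgeR (2 lower at an unadjusted p under 0.05, 2 by DESeq2, 0 by limma), and 2 were lower with the block, against 0.603% and 2.16% of all genes. The part of granulocytes in these values was not tested.

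Of 15 coagulation genes tested, 2 were lower in CD11chiMϕ at an edgeR adjusted p under 0.05, against 0.603% of all genes, and 5 with the block, against 2.16%. Without the libraries numbered 3, 7 of 14 were lower and 1 was higher, where 7.81% and 7.85% of all genes were. *F5*, coagulation factor V, had 22.8, 37.0 and 34.2 CPM against 390.5, 565 and 239 CPM (log2 fold change -3.67, standard error 0.409, edgeR adjusted p = 0.022). *Thbd*, thrombomodulin, which turns thrombin towards protein C, had 24.3, 29.2 and 22.6 CPM against 87.6, 70.1 and 58.6 CPM (log2 fold change -1.51, edgeR adjusted p = 0.0424). Groups were apart for both genes. *F10*, factor X, had 27.9, 28.6 and 18.0 CPM against 188, 109 and 64.5 CPM (edgeR adjusted p = 0.0688, and 0.0144 with the block).

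Calcium-binding S100 proteins and annexins are high in monocytes. The list of their genes, which also holds *Ahnak*, *Capg*, *Vim*, *Lgals1* and *Lgals3*, leaned to CD11cloMϕ. Of 21 genes, 20 had a negative log2 fold change and 17 lay wholly lower, against 12.8% of all genes, with a median of -1.29. With group alone 0 passed the edgeR adjusted threshold (16 lower at an unadjusted p under 0.05, 13 by DESeq2, 0 by limma), 2 were lower with the block and 15 without the libraries numbered 3, against 2.16% and 7.81% of all genes. *Anxa1*, a mediator of the resolution of inflammation, had 252, 187 and 86.1 CPM against 784, 635 and 419 CPM (edgeR adjusted p = 0.12, and 0.025 with the block). Of 23 serous cavity macrophage genes 0 passed with group alone by edgeR (9 lower at an unadjusted p under 0.05, 9 by DESeq2, 0 by limma), 3 were lower with the block and 10 without the libraries numbered 3, against the same shares, and the transcription factor of peritoneal macrophages, *Gata6*, was at 2.74 CPM or less.

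Signalling genes among those that were lower included *Osm*, a cytokine of the interleukin-6 family, with 77.6, 103 and 42.2 CPM against 554, 523 and 307 CPM (log2 fold change -2.63, edgeR adjusted p = 0.0478). *Tnfaip2* and *Ikbke*, targets and regulators of NF-kB, had log2 fold changes of -2.37 and -2.46 (edgeR adjusted p = 0.0202 and 0.0208). With group alone they were the 2 of 25 NF-kB genes that passed, and with the block 3 were lower, against 0.603% and 2.16% of all genes. Without the libraries numbered 3, 3 were higher and 5 lower, against 7.85% and 7.81% of all genes. The transcription factors *Nfil3*, *Fosl2* and *Rxra* were lower, with log2 fold changes of -2.24, -2.12 and -1.45 (edgeR adjusted p = 0.0325, 0.0208 and 0.0322). *P2rx1*, an ATP-gated channel, had 4.37, 4.99 and 5.91 CPM against 90.9, 105 and 50.3 CPM, and *Rnf125*, a ubiquitin ligase of antiviral sensors, 1.69, 2.65 and 1.44 CPM against 40.9, 36.7 and 33.4 CPM. Groups were wide apart for both (log2 fold change -4.01 and -4.25, edgeR adjusted p = 0.0202 and 0.0191).

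**Figure D4:**
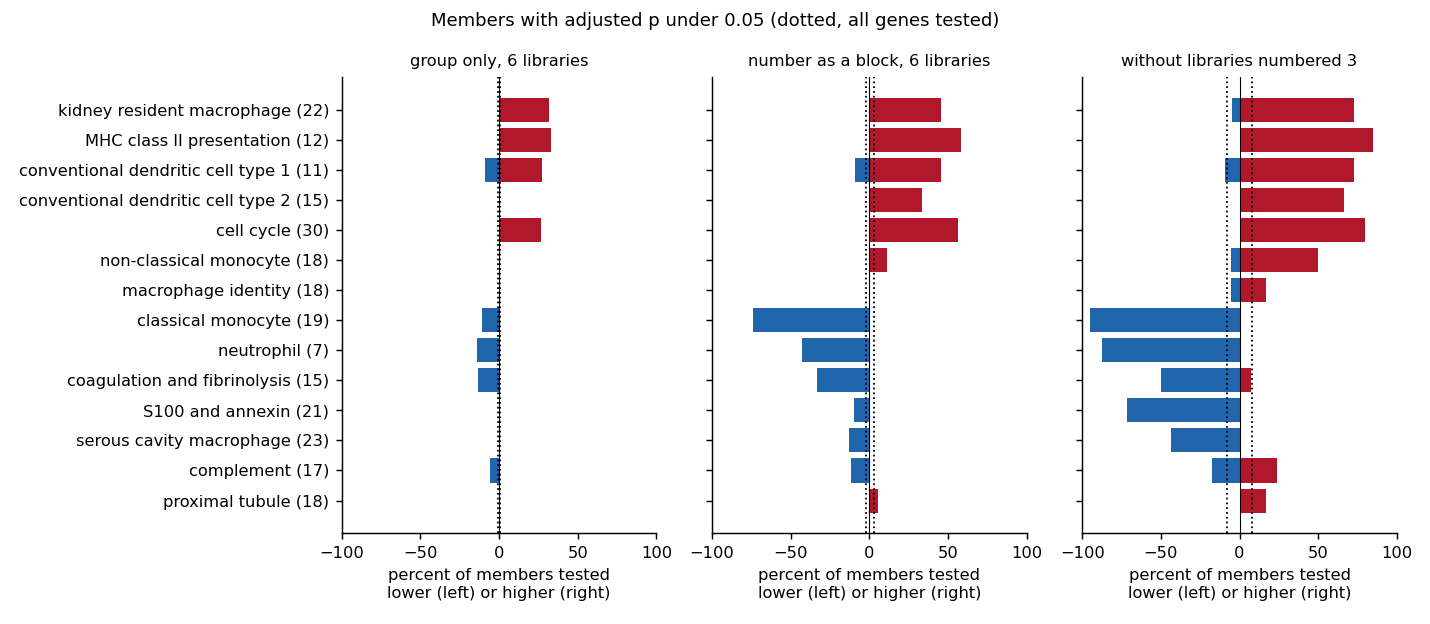
Percent of the tested genes of each list that passed an adjusted p of 0.05, higher in CD11chiMϕ to the right and lower to the left, with group alone, with the block and without the libraries numbered 3. Numbers in parentheses are genes tested with group alone and dotted lines mark all genes tested; among the lists drawn, the MHC class II and cell cycle lists reach furthest to the right, and the classical monocyte and neutrophil lists furthest to the left, in the panels with the block and without the libraries numbered 3.

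The same contrast was measured in separate libraries from RAS kidneys, 4 of each population, in which the renal artery had been narrowed. Replicates 3 and 4 of the RAS CD11chiMϕ were far closer to each other than other pairs: the chi-square of their counts per degree of freedom was 5.13, against 94.3 to 128 for the other pairs of that group and 38.5 to 166 for pairs of RAS CD11cloMϕ. The labels name them as separate samples. The study's methods count fewer samples in the RAS CD11chiMϕ and RAS CD11cloMϕ groups than there are libraries. The chi-square value of the pair, though above sampling noise, does not show that the pair came from separate RNA samples. Counts are therefore given both ways, with the pair apart and with the pair averaged as 1 sample, a choice made after this was seen. With all 8 libraries 1018 of 12305 genes (8.27%) passed an edgeR adjusted p of 0.05, 634 higher (5.15%) and 384 lower (3.12%), and with the pair as 1 sample 282 of 12657 (2.23%) did, 214 higher (1.69%) and 68 lower (0.537%). Of the 184 genes called in Sham kidneys 178 could be tested in RAS kidneys, 163 had the same direction and 89 were also called in that direction, which is 48.4% of the Sham calls and 8.74% of the RAS calls. All 71 lower genes that could be tested kept their direction and 40 were called. Of the 107 higher genes 92 kept their direction, 49 were called, and 15 had the opposite direction, of which 0 were called. With the pair as 1 sample 167 of 181 kept their direction and 42 were called, and 73 of 73 lower and 94 of 108 higher genes kept it. For the difference between RAS and Sham kidneys itself, 0 of 13540 genes passed an edgeR adjusted p of 0.05, while 900 (6.65%) had an unadjusted p under 0.05 and DESeq2 called 13. With the pair as 1 sample edgeR called 0 of 13434, with 578 at an unadjusted p under 0.05.

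*Mmp12* kept its difference, with 478, 1137, 1420.5 and 1325 CPM in the RAS CD11chiMϕ libraries and 1.46, 5.17, 22.5 and 9.32 CPM in the RAS CD11cloMϕ libraries. Its log2 fold change there was 6.83 (edgeR adjusted p = 0.0036). *H2-Oa* had 84.6, 248, 348 and 349 CPM against 4.85, 2.25, 11.1 and 6.21 CPM, and *Top2a* 37.7, 77.9, 103 and 123 CPM against 3.01, 4.38, 10.01 and 6.44 CPM (log2 fold change 5.40 and 3.84, edgeR adjusted p = 0.00298 and 0.0036). Cell cycle genes were called in 27 of 30, all higher, and 11 of 15 genes of dendritic cells type 2 were higher, against 5.15% of all genes. *Mmp9* was again lower, with 52.9, 21.6, 3.96 and 1.69 CPM against 337, 447, 600.4 and 1209 CPM (log2 fold change -5.01, edgeR adjusted p = 0.0195), and 10 of 19 classical monocyte genes were lower, against 3.12% of all genes. With the pair as 1 sample these 4 genes were still called (edgeR adjusted p = 0.0134, 0.0114, 0.0134 and 0.0419, in the order given), and 21, 8 and 4 genes of the 3 lists were called in the same directions, against 1.69% of all genes higher and 0.537% lower.

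Several resident genes overlapped between the populations in RAS kidneys. *Mmp13* had 131, 5.97, 9.90 and 8.69 CPM in RAS CD11chiMϕ and 8.25, 4.27, 187 and 26.0 CPM in RAS CD11cloMϕ. *Cd72* had 455, 202, 216 and 194 CPM against 61.4, 28.1, 562 and 141 CPM, and *Itga9* 123, 9.49, 8.25 and 1.58 CPM against 19.99, 23.7, 201 and 57.6 CPM. All 3 genes overlapped between groups, with log2 fold changes of -0.53, 0.43 and -1.07. The unadjusted p for the difference from Sham was 0.0079 for *Mmp13* and 0.0035 for *Cd72*, and the edgeR adjusted p was 0.735 for both. In RAS kidneys 1 of the 22 resident genes, *Mmp12*, was called, a share near the 5.15% of all genes that were higher. The median over the 22 was -0.53 on the log2 scale. With the pair as 1 sample 1 of 22 was called, against 1.69% of all genes, with a median of -0.24. Outside the resident list, *Igkv3-2* had 54.8, 3.98, 11.9 and 0 CPM against 0.097, 0.225, 0.106 and 24.2 CPM (log2 fold change 1.54, edgeR adjusted p = 0.626). *Ighv1-53* overlapped as well (edgeR adjusted p = 0.13). Of 21 genes of the S100 and annexin list 3 were lower (3.12% of all genes), with a median of 0.12. With the pair as 1 sample 0 of them were lower (0.537% of all genes).

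CD11cloMϕ replicate 3 of the RAS kidneys stood apart. Its resident list summed to 31334 CPM, against 7030 to 9766 CPM in the other RAS CD11cloMϕ libraries, and its class II list to 93796 CPM against 17551 to 38263 CPM. The resident sums of RAS CD11chiMϕ were 14291 and 15295 CPM in replicates 1 and 2. In replicates 3 and 4 they were 5989 and 5046 CPM, both below every RAS CD11cloMϕ library. Without CD11cloMϕ replicate 3, a choice made after this sum was seen, 178 of 181 Sham calls kept their direction and 121 were called. In that fit 4.81% of all genes were higher and 3.32% lower (8.13% together). Of 22 resident genes 2 were higher, *Mmp12* and *Cxcl16*, with a median of 0.37, and *Mmp13*, *Cadm1* and *Cd72* had log2 fold changes of 1.61, 2.07 and 1.79 (edgeR adjusted p = 0.434, 0.0984 and 0.0843).

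**Figure D5:**
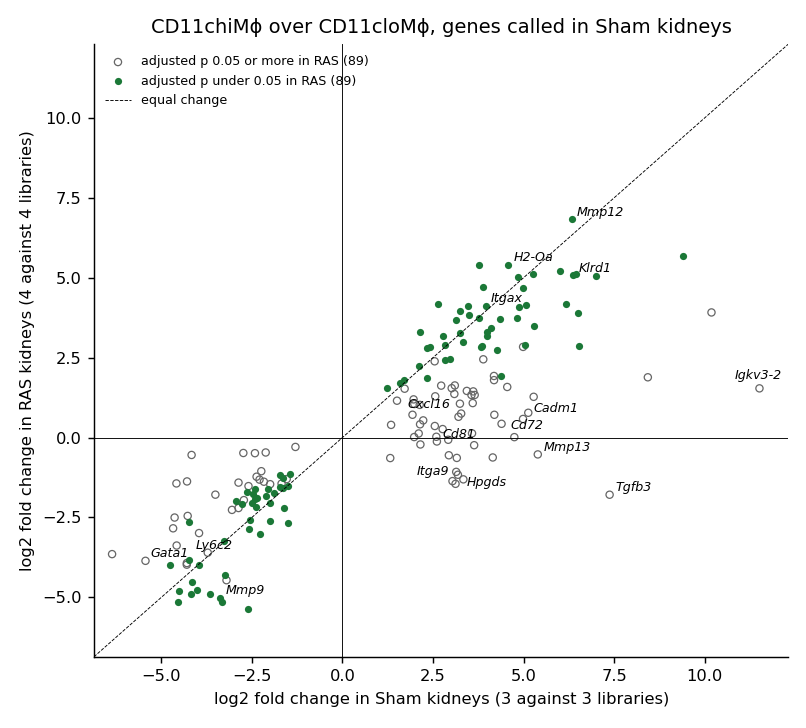
Log2 fold change of CD11chiMϕ over CD11cloMϕ in RAS kidneys (4 against 4 libraries) against that in Sham kidneys (3 against 3) for the 178 genes called in Sham kidneys and tested in RAS kidneys, with equal change on the dashed line. Filled points are the 89 genes that also passed in RAS kidneys; all 71 lower genes lie below 0 in RAS kidneys, while 15 of the 107 higher genes, *Mmp13*, *Itga9* and *Tgfb3* among them, do too.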

How the data were processed

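RNA-seq was done on macrophages sorted from mouse kidney, and 6 of 21 libraries are compared here. According to the methods of the study, libraries were made with SMARTer v4 Ultra Low-Input and Nextera XT kits and aligned with OSA to mm10 with Ensembl release 83 gene models. The table that the authors deposited first holds estimated counts per gene from their aligner, not scaled, and the second table holds log2 values that the authors made from TPM and quantile normalized. The submitters' processing notes name DESeq2.

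Rows that share a symbol (3730 of 37620) were summed to 34236 genes, and the sums were rounded to whole counts. Genes were kept by edgeR's filterByExpr (minimum count 10, minimum total 15), libraries were scaled by TMM, and groups were compared with edgeR 4.0.16 by its two-sided quasi-likelihood test with Benjamini-Hochberg adjustment over all genes tested (R 4.3.3). DESeq2 1.42.0 and limma 3.58.1 on the deposited log2 table were alternatives, with other scalings, filters, fits over more libraries, leaving out each library, and the replicate number as a block. The scripts were tested on simulated data. A fold against a group at 0 uses a floor of 3 counts per library.

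Pairing was checked by the correlation over genes of deviations from the group means. It was 0.343, 0.399 and 0.661 for libraries of the same number, which by the rule used pairs them, although CD11chiMϕ replicate 1 correlated at 0.521 with CD11cloMϕ replicate 2 and CD11chiMϕ replicate 2 at 0.483 with CD11cloMϕ replicate 1. These crossed values are above those of the same number. The check therefore cannot decide how the libraries numbered 1 and 2 pair, which the block takes as given.

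The comparison and its 46 gene lists were chosen with earlier results of these data known, and the resident list is partly drawn from genes the study names, so neither is independent evidence. Genes named are the 15 with the largest change in each direction (called, no overlap, all 3 numbered pairs alike, average log2 CPM of at least 3), members of the lists, genes the study names and members against their list. Further genes, and the promoters and motif letters, were chosen after values and sequences had been seen. Of 723 list genes 718 were found, 14 of them under older symbols, and 634 could be tested. Gene positions are from GENCODE vM21 on GRCm38. Some genes of the lists are not reported here by name.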

Additional observations from a re-analysis of the deposited data

How the results depend on the processing

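The count of genes with a fold change above 2 at an adjusted p under 0.05 (184 by edgeR with group alone) was 172 with median-of-ratios size factors, 144 with at least 10 counts in every library and 184 with rows of 1 symbol kept apart. It moved to 113 with total library size, 95 with no filter on low counts, 115 by limma on the log2 table, 722 in 1 fit over 21 libraries, 899 in 1 fit over 10 Sham libraries, 1078 by DESeq2, 595 with the replicate block and 1425 without the libraries numbered 3. Leaving out 1 library gave 0 to 627. The cause of these moves was not tested, and leaving out a library also leaves 1 residual degree of freedom fewer. The block called 181 of the 184 genes, limma 80, and the fit with no filter 93. The count above 2-fold at an unadjusted p under 0.05, 1521, stayed within 1.5 times that value in every setting run, while the count at any fold, 2144, ran from 1272 (without CD11cloMϕ replicate 2) to 3690 (without the libraries numbered 3). A set of 126 genes was followed through the settings, and all kept their sign in the Sham contrast in every setting that tested them. The 84 of them called were all called with the block and without the libraries numbered 3. Some of the set are not named here, and some genes named here are outside it. Of the latter, *Csf1r* went from -0.23 on the log2 scale with group alone to 0.26 without the libraries numbered 3, and *Apoe* from -0.30 to 0.26.

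The RAS contrast fell from 1018 to 282 genes with CD11chiMϕ RAS replicates 3 and 4 averaged as 1 sample, which leaves 1 sample fewer. For the difference between RAS and Sham kidneys edgeR called 0 genes in every setting run, with 539 to 1718 genes at an unadjusted p under 0.05, and DESeq2 called 13. The *Mmp12* difference of 0.56 on the log2 scale, which missed the threshold, reversed to -0.22 without the Sham libraries numbered 3 and ran from -0.078 (without CD11cloMϕ Sham replicate 3) to 1.31 (without CD11cloMϕ RAS replicate 3) when 1 library was left out. A median log2 fold change over all genes of 0.13 with TMM became 0.11 with median-of-ratios factors and 0.065 with total library size. The filter on low counts left 12105 genes tested, against 19654 without it.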

Other observations

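Genes of the interferon response, lysosomes and sterol synthesis were counted in the Sham contrast. Of 26 interferon-stimulated genes, 27 genes of lysosomes and the proton pump and 18 of sterol synthesis, 0 passed an edgeR adjusted p of 0.05 with group alone, where 0.917% of all genes were higher and 0.603% lower, with median log2 fold changes of -0.38, -0.026 and 0.068. At an unadjusted p under 0.05 the counts higher and lower were 1 and 4, 3 and 1, and 1 and 2, by DESeq2 they were 1 and 3, 2 and 1, and 0 and 0, and limma on the deposited log2 values called 0 in all. With the block 1 of the 26 interferon-stimulated genes was lower, where 2.16% of all genes were, and 0 others of the 3 lists passed. Without the libraries numbered 3, where 7.85% and 7.81% of all genes were higher and lower, the counts were 2 and 2, 3 and 5, and 1 and 1.

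Of 25 glycolysis and hypoxia genes 0 passed by edgeR with group alone (8 lower at an unadjusted p under 0.05, 6 by DESeq2, 0 by limma), 1 was lower with the block and 14 without the libraries numbered 3, against 2.16% and 7.81% of all genes. *Alox15*, the lipoxygenase that makes resolving lipid mediators, had 56.3, 108 and 128 CPM in CD11chiMϕ and 685, 959 and 338 CPM in CD11cloMϕ. The groups did not overlap (log2 fold change -2.76, edgeR adjusted p = 0.0609, and 0.0344 with the block). *Hdc*, which makes histamine, was lower in CD11chiMϕ, with 6.06, 7.54 and 2.88 CPM against 38.8, 36.9 and 24.5 CPM (log2 fold change -2.60, edgeR adjusted p = 0.0492).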
